A study of Mus musculus with 6 samples.

Results

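This report describes 70 mouse genes of the guidance families, namely the semaphorins with their plexin and neuropilin receptors, the ephrins with their Eph receptors, the Slits with their Robo receptors, and the netrins with the receptors Unc5, Dcc and neogenin (*Neo1*). They were picked by symbol among the protein-coding entries of a table of 56748 genes, of which 21970 are protein-coding. The rule itself used no measured values, but the members were chosen with earlier results of these data known. Primary osteocytes, the cells embedded in bone matrix, were released from limb bones, and the methods describe this for C57BL/6 mice aged 7 weeks. The samples were 6 cultures of such cells, grown for 7 days before RNA sequencing. Of these, 3 were labelled WT and 3 were labelled cKO, which the study describes as *Gsdmd* fl/fl; DMP1-Cre, a deletion of the pore-forming protein gasdermin D driven by the *Dmp1* promoter in mature cells of the osteoblast lineage. The background strain of the cKO mice is not stated, and their age at isolation is not given separately. Every culture was primed with 10 ng/mL LPS for 3 h and then given 20 µg/mL aluminum hydroxide, an inflammasome activator, for 3 h. Each value thus compares the labelled genotypes under stimulation. Nothing in the labels ties the replicates to separate animals, and p-values measure the spread between these cultures, which may be technical.

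The libraries held 39566835 to 49734046 counts on genes. Among counts of 1 to 10, 63.4% to 65.7% were even, so a count may stand for a mate of a read pair rather than for a fragment. *Gsdmd* itself was higher in the libraries labelled cKO, at 22.5 ± 1.33 counts per 1000000 (CPM) against 13.9 ± 0.339 CPM in WT (SD, n = 3 each), and the name cKO below stands for that label. *Xist*, the RNA that coats the silenced X chromosome in female cells, averaged 1138 CPM in cKO and 0.0468 CPM in WT, and 4 Y-linked genes had 0 counts in each cKO library. Sex and genotype therefore cannot be told apart in any value below. Of 9 osteocyte markers, *Sost* and *Dkk1* were at 0 in all 6 libraries, *Dmp1* and *Mepe* had at most 6 counts in any library, and *Phex*, *Fgf23* and *Ptprz1* at most 62. Their sum of 232 to 246 CPM in WT and 196 to 203 CPM in cKO came mostly from *Pdpn*, at 234 ± 7.59 and 193 ± 3.57 CPM (SD, n = 3 each), while *Irx5* averaged 5.25 and 6.45 CPM. All 15 of 15 macrophage markers rose at least 2-fold in cKO, from a summed 314 to 365 CPM to a summed 2209 to 2310 CPM. Of 8 tested chondrocyte markers, 7 rose, 5 of them at least 2-fold, and 1 fell, and the list's sum went from 1971 to 2184 CPM in WT to 2950 to 3139 CPM in cKO. *Comp* rose from 567 to 2117 CPM and *Acan* from 0.124 to 20.2 CPM, while *Col2a1* fell from 1428 to 798 CPM. Of 6 tested smooth muscle and pericyte markers, 5 fell. Their list's sum went from 797 to 957 CPM in WT to 385 to 437 CPM in cKO. Of 7 tested osteoblast markers, 2 rose and 4 fell. The osteoblast sum was 16822 to 19033 CPM in WT and 12084 to 12589 CPM in cKO. Of 5 tested osteoclast markers, 2 rose, 2 fell and 1 did not pass the test. In bulk RNA, fewer cells of a type and less RNA per cell cannot be told apart, and the part of these marker shifts in the results below was not tested.

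The guidance families were first described as signals that steer growing axons and are used by many tissues to set cell position and contact. Semaphorins act through plexins, and the secreted class 3 members mostly need a neuropilin as co-receptor. Ephrins stay on the membrane and bind Eph receptor tyrosine kinases on a neighbouring cell, with signals running into both cells. Slits bind Robos, and netrins bind Dcc and neogenin or the Unc5 receptors. In bone, *Sema4d* from osteoclasts acts on plexin B1 of osteoblasts, *Sema3a* acts through neuropilin 1 on osteoclast precursors and osteoblasts, and ephrin B2 and EphB4 are known for contacts between osteoclasts and osteoblasts.

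Of the 70 genes, 61 had enough counts to be tested with edgeR's quasi-likelihood test, and 39 of them differed between the genotypes at a Benjamini-Hochberg adjusted p-value below 0.05, with 12 higher and 27 lower in cKO. This was 63.9% of the tested guidance genes, where 39.3% of all 17146 tested genes passed. By direction, 19.7% of them rose, close to the 20.1% among all tested genes, and 44.3% fell, against 19.2% among all tested genes. At least 2-fold changes were found for 13 genes, 3 higher (4.92%, against 6.56% of all tested genes) and 10 lower (16.4%, against 4.64% of all tested genes). The groups did not overlap for 45 of 61 genes, 16 higher and 29 lower in cKO, which is 73.8%. Of all tested genes, 49.2% did not overlap, 25.3% being higher and 23.9% lower in cKO. The median log2 fold change was -0.15 over the 61 genes and 0.0077 over all tested genes, and single values ran from -2.59 for *Epha4* to 3.00 for *Sema4d*. The decreases were spread over ligands, with 5 higher and 16 lower of 33, and receptors, with 7 higher and 11 lower of 28. Of the 11 semaphorin receptors, 6 rose and 0 fell.

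**Figure D1:**
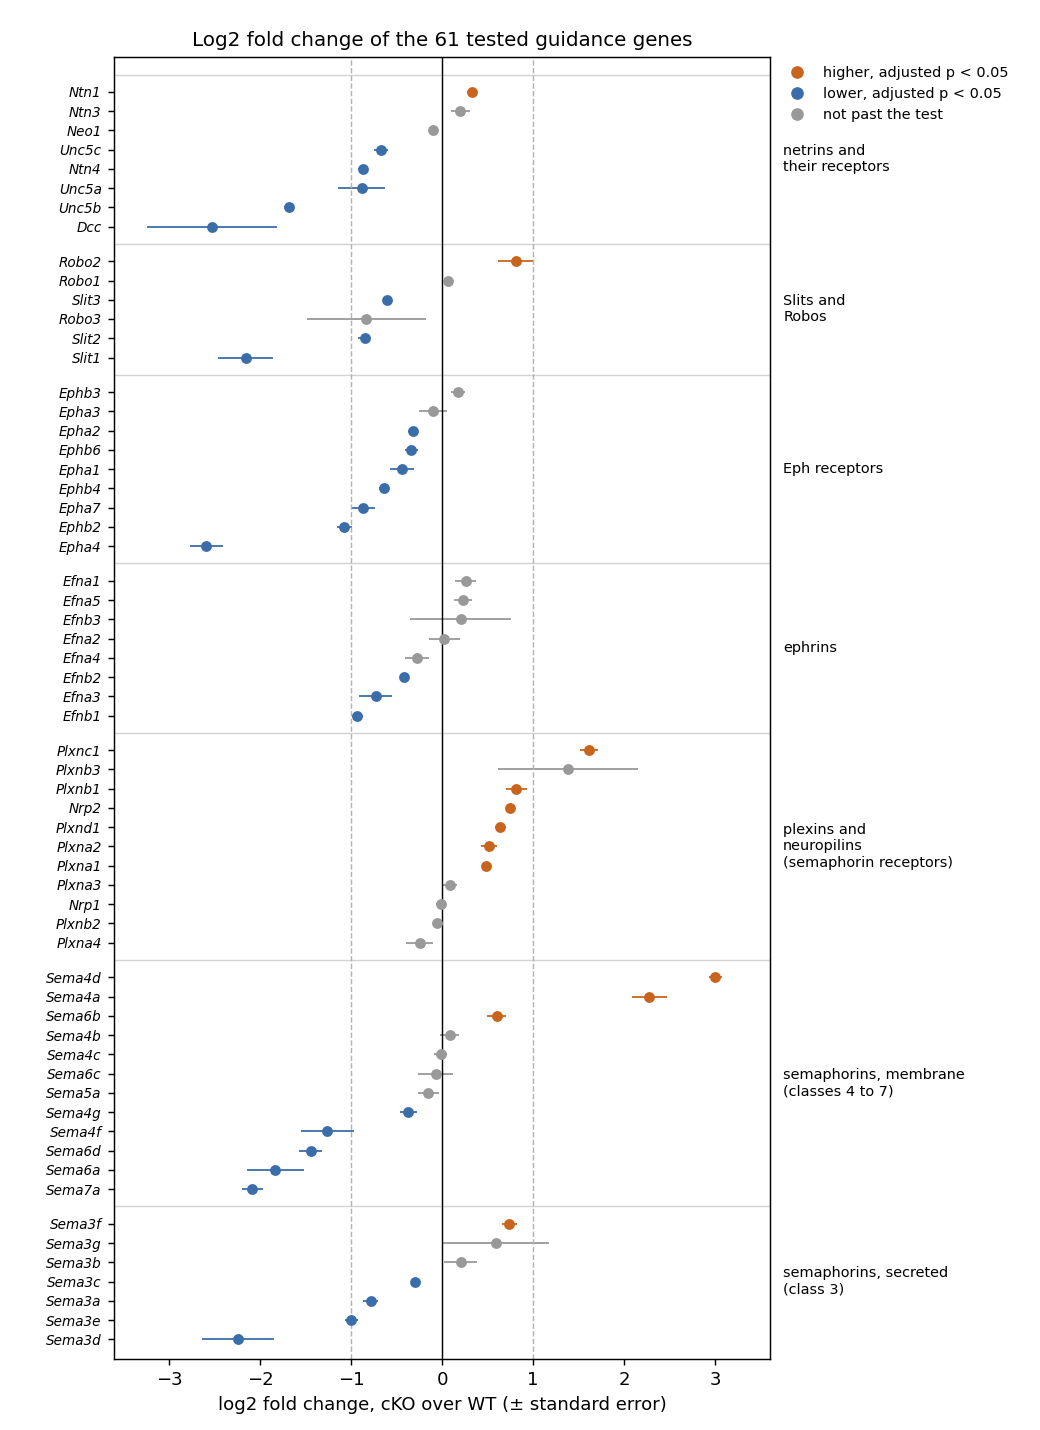
Log2 fold change of the 61 tested guidance genes by family (x axis, cKO over WT), with dashed lines at a 2-fold difference. Bars are a standard error derived from the F value of the edgeR test. *Sema4d* lies farthest to the right at 3.00 and *Epha4* farthest to the left at -2.59, and no plexin or neuropilin fell.

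The sequence before the transcript start is shown for 4 genes at least 2-fold apart, and not for others such as *Epha4* and *Sema4a*. The 4 are *Sema4d* and *Plxnc1*, which rose, and *Sema7a* and *Unc5b*, which fell. Each was read from the genome build GRCm39 on the gene's own strand, as the longest stretch free of annotated exons within the 250 bases before the canonical start in GENCODE vM39. It runs from chr13:51947923-51948068 on the minus strand for *Sema4d*, from chr10:94780878-94781127 on the minus strand for *Plxnc1*, from chr9:57847125-57847374 on the plus strand for *Sema7a* and from chr10:60667397-60667638 on the minus strand for *Unc5b*. Capitals mark paired NF-kB half-sites, searched on either strand as the letters GGGA, any 4 bases and the letters CC.
Sema4d: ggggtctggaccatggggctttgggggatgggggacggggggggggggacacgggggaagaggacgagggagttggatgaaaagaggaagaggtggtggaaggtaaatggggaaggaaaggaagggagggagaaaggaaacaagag
Plxnc1: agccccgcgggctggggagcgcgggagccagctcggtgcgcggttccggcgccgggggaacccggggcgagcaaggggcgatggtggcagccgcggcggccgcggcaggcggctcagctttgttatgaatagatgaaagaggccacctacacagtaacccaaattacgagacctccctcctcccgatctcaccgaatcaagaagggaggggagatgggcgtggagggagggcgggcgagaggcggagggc
Sema7a: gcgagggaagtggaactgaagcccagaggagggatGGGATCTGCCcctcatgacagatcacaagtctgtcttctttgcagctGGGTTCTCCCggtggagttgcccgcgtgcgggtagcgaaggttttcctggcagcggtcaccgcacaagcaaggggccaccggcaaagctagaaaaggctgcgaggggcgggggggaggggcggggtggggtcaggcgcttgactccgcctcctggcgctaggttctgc
Unc5b: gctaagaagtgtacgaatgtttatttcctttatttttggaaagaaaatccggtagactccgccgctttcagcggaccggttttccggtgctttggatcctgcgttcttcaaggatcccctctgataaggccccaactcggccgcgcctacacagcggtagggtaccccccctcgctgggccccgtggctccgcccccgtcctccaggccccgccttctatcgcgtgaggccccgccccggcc
*Sema7a* held these letters at 215 and 168 bases before its start, and the other 3 held none of the 3 motifs searched. Over the full 250 bases and on both strands, the paired half-sites were found in 20 of 70 guidance genes (28.6%) and in 18.2% of 21770 protein-coding genes. They were in 4 of the 10 guidance genes at least 2-fold lower, *Epha4*, *Ephb2*, *Sema6a* and *Sema7a*. Of the 3 at least 2-fold higher, 0 held them, but the window of *Sema4a* among these lay wholly within annotated exons. ACGTG, the core of hypoxia response elements, was found in 9 of 70 (12.9%, against 17.0%), and GAGGAAGT, a core bound by PU.1, in 0 of 70 (against 2.08%). The guidance genes had a median GC content of 62% and a median of 12.5 CpG in these windows, against 53.2% and 8 over all protein-coding genes. A match is a run of letters and no evidence of binding, and promoter use was not measured.

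Levels of different genes are compared here as CPM per kilobase of gene length. In WT the highest was *Plxnb2* at 72.7 CPM per kb, a plexin that binds class 4 semaphorins, followed by *Slit3* at 51.5, *Plxna1* at 37.3, *Unc5b* at 27.8, *Sema3c* at 24.8 and *Nrp2* at 21.0 CPM per kb. In cKO the order was *Plxnb2* at 70.0, *Plxna1* at 52.2, *Nrp2* at 35.3, *Slit3* at 33.8 and *Sema3c* at 20.1 CPM per kb, and *Unc5b* had dropped to 8.70 CPM per kb. The most abundant guidance transcripts were thus receptors of semaphorins and netrins, a Slit and a secreted semaphorin. *Plxnb2* was counted 24696, 26087 and 23687 times in WT and 22550, 21949 and 24277 times in cKO. Its groups overlapped, and the log2 fold change of -0.054 had a 95% interval of -0.15 to 0.045. *Sema3c*, a secreted semaphorin of chromosome 5, was counted 7988, 8901 and 6737 times in WT and 6174, 5816 and 6247 times in cKO. On the scale of CPM it fell from 177 ± 2.96 to 143.5 ± 5.19 CPM (SD, n = 3 each), a 1.23-fold decrease (edgeR adjusted p-value 1.95e-05).

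**Figure D2:**
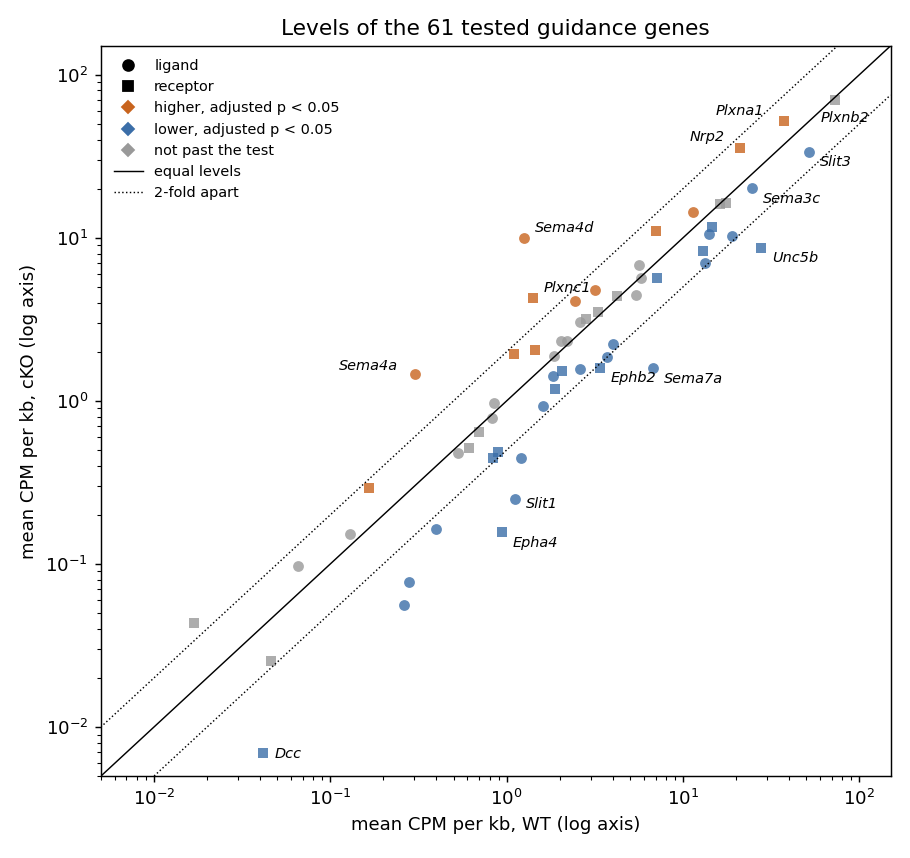
Mean CPM per kb of gene length in WT (x axis) and cKO (y axis), both log axes, for the 61 tested guidance genes, with circles for ligands and squares for receptors. *Sema4d*, *Sema4a* and *Plxnc1* lie above the upper dotted line of a 2-fold difference, *Unc5b*, *Sema7a* and *Epha4* lie below the lower one, and *Plxnb2* sits near the diagonal at the top.

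Among the membrane semaphorins, 3 of 12 tested genes rose and 5 fell. *Sema4d* (chromosome 13, 51839565 to 51947783), whose product is also known as CD100, was counted 469, 431 and 377 times in WT and 3166, 3100 and 3535 times in cKO. Each cKO library was far above each WT library. This was 9.61 ± 0.872 CPM in WT and 77.0 ± 1.53 CPM in cKO (SD, n = 3 each), 8.03-fold higher, with a log2 fold change of 3.00 ± 0.070 (SE, edgeR adjusted p-value 8.51e-16). In GENCODE vM39, 13.7% of its exon bases overlap *Secisbp2* on the other strand. In the coordinates deposited with the counts, *Secisbp2* ends at 51838080, before the start of *Sema4d*, so the counted genes do not overlap. *Secisbp2* held 752 to 961 counts in WT and 822 to 1101 in cKO. The strand setting of the counting is not given in the sources used here. *Sema4a* (chromosome 3, 88343266 to 88368489), another class 4 member known from immune cells, was counted 69, 82 and 67 times in WT and 269, 385 and 353 times in cKO. Its groups did not overlap either, and it rose 4.85-fold with a log2 fold change of 2.28 ± 0.19 (SE, edgeR adjusted p-value 2.27e-08). *Sema6b* rose by less, with a log2 fold change of 0.60. All 3 increases stood beside the rise of the 15 macrophage markers, whose part was not tested.

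The 4 membrane semaphorins that fell at least 2-fold came from classes 4, 6 and 7. *Sema7a* (chromosome 9, 57847395 to 57870148), a semaphorin held by a lipid anchor that signals through integrin beta 1 and plexin C1, was counted 987, 953 and 986 times in WT and 220, 197 and 249 times in cKO. It fell from 22.2 ± 3.11 to 5.22 ± 0.264 CPM (SD, n = 3 each), 4.24-fold lower, with a log2 fold change of -2.08 ± 0.12 (SE, edgeR adjusted p-value 8.95e-11). The lowest WT library held 953 counts and the highest cKO library 249, so the groups were far apart. *Sema6d*, a transmembrane ligand of plexin A1, was counted 507, 640 and 550 times in WT and 193, 186 and 219 times in cKO, a 2.72-fold decrease. *Sema6a*, a ligand of plexins A2 and A4, was counted 128, 137 and 67 times in WT and 31, 19 and 38 times in cKO, a 3.56-fold decrease. *Sema4f* was counted 105, 91 and 83 times in WT and 38, 28 and 46 times in cKO, a 2.39-fold decrease (edgeR adjusted p-value 0.00185). None of these 3 genes overlapped between the genotypes. *Sema4g* fell by 0.37 on the log2 scale. In GENCODE vM39, 12.7% of its exon bases overlap *Mrpl43* on the other strand, which was counted 921 to 1200 times per library. In the deposited coordinates these genes do not overlap, as *Sema4g* ends at 44991836 and *Mrpl43* starts at 44993268. The genes *Sema4b*, *Sema4c*, *Sema5a* and *Sema6c* did not pass the test, with log2 fold changes of 0.083, -0.012, -0.15 and -0.071.

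Among the 7 secreted class 3 semaphorins, 1 rose and 4 fell. *Sema3d* was counted 109, 134 and 65 times in WT and 14, 34 and 12 times in cKO, 4.73-fold lower (log2 fold change -2.24 ± 0.40 SE, edgeR adjusted p-value 0.000186). Without cKO replicate 2, the highest of its group, the log2 fold change was -2.92. *Sema3a*, which restrains osteoclast formation and favours osteoblasts, was counted 1064, 1107 and 815 times in WT and 559, 509 and 583 times in cKO. It fell from 22.3 ± 1.32 to 13.0 ± 0.270 CPM (SD, n = 3 each), 1.72-fold lower, with a log2 fold change of -0.78 ± 0.084 (SE, edgeR adjusted p-value 6.01e-07). *Sema3e*, a ligand of plexin D1, fell by 0.995 on the log2 scale, just inside a 2-fold change. The 4 class 3 genes that fell, *Sema3a*, *Sema3c*, *Sema3d* and *Sema3e*, all lie within 5.50 Mb on chromosome 5, between 12433352 and 17935266. *Sema3f*, a ligand of neuropilin 2 on chromosome 9, rose with a log2 fold change of 0.74 (edgeR adjusted p-value 1.61e-06). *Sema3b* and *Sema3g* did not pass the test, and *Sema3g* had at most 26 counts in any library.

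**Figure D3:**
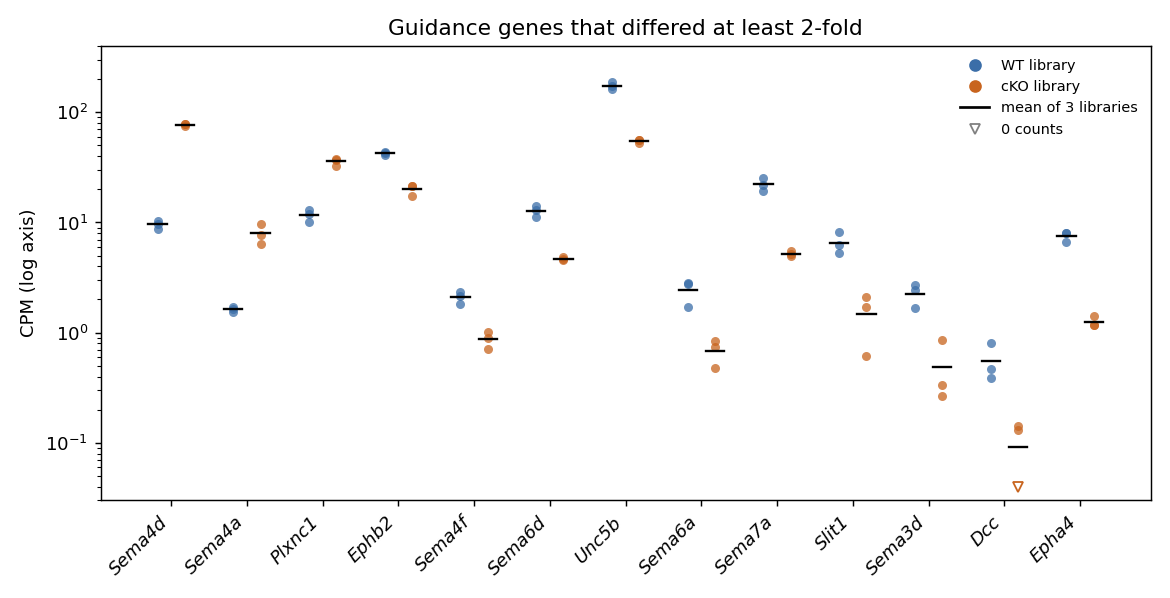
CPM (log axis) of the 13 guidance genes with an adjusted p-value below 0.05 and at least a 2-fold difference, 1 point per library and a bar at the mean of 3 libraries. The genotypes do not overlap for any of the 13, and *Dcc*, with a cKO library at 0 counts (open triangle), has the lowest levels.

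Summed over all 20 semaphorins, the level differed by less than the spread of the libraries, while its makeup differed by more. The sum was 58.2 ± 1.28 CPM per kb in WT and 57.4 ± 1.08 CPM per kb in cKO (SD, n = 3 each), and the ranges of the libraries overlapped. *Sema4d* made up 2.15% ± 0.167 of this sum in WT and 17.5% ± 0.448 in cKO (SD, n = 3 each, here and for the shares that follow). All class 4 genes together went from 20.1% ± 0.446 to 36.8% ± 0.753, while class 3 went from 58.0% ± 2.05 to 49.0% ± 1.04. *Sema3c* remained the most abundant semaphorin in both genotypes, at 42.6% ± 1.63 in WT and 35.0% ± 0.857 in cKO. *Sema7a* went from 11.5% ± 1.37 to 2.76% ± 0.191, so that *Sema7a* exceeded *Sema4d* in each WT library and *Sema4d* exceeded *Sema7a* in each cKO library. Classes 5 and 6 held 10.3% ± 0.292 and 11.5% ± 0.280. These shares are descriptions of the same counts and carry no test of their own.

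**Figure D4:**
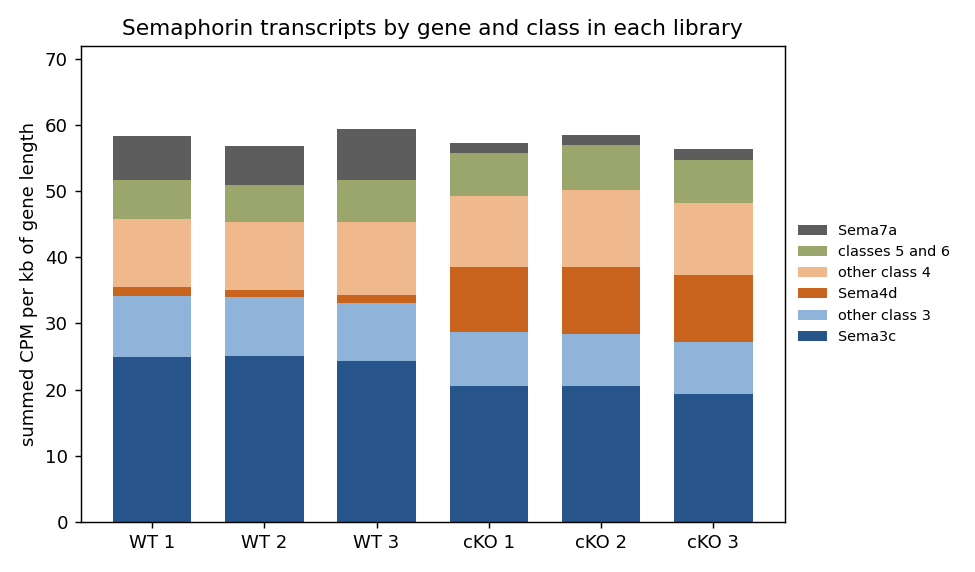
Summed CPM per kb of gene length of the semaphorin genes in each library (y axis), stacked by gene and class. The bars end between 56.4 and 59.4 CPM per kb in all 6 libraries, while the *Sema4d* segment takes 2.15% of the WT mean and 17.5% of the cKO mean.

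Among the plexins and neuropilins, 6 of 11 rose and 0 fell, with a median log2 fold change of 0.51. *Plxnc1* (chromosome 10, 94626728 to 94780697), the plexin that binds *Sema7a*, was counted 539, 504 and 508 times in WT and 1377, 1509 and 1681 times in cKO. It rose 3.07-fold, from 11.7 ± 1.48 to 35.9 ± 2.78 CPM (SD, n = 3 each), with a log2 fold change of 1.62 ± 0.094 (SE, edgeR adjusted p-value 1.80e-10). Ligand and receptor of this pair thus differed in opposite directions. *Plxnb1*, the high-affinity receptor of *Sema4d*, was counted 523, 429 and 442 times in WT and 837, 760 and 759 times in cKO, a 1.76-fold increase (edgeR adjusted p-value 1.64e-05). *Plxna1*, which pairs with neuropilin 1 for *Sema3a*, was counted 15475, 15792 and 13652 times in WT and 20291, 19369 and 20342 times in cKO. It rose 1.40-fold, from 338 ± 17.5 to 472 ± 21.4 CPM (SD, n = 3 each). Both genes had no overlap between the genotypes. *Plxnd1* and *Plxna2* rose with log2 fold changes of 0.64 and 0.51, the latter with 16.8% of its exon bases under antisense genes, and *Plxna3*, *Plxna4* and *Plxnb3* did not pass the test. Of these, *Plxna3* and *Plxnb3* are X-linked, and *Plxnb3* had at most 14 counts in any library.

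The neuropilins differed from each other. *Nrp2*, the receptor preferred by *Sema3f*, was counted 10892, 12226 and 10028 times in WT and 17146, 16913 and 19131 times in cKO. It rose 1.68-fold, from 249 ± 8.47 to 418 ± 9.34 CPM (SD, n = 3 each), with a log2 fold change of 0.75 ± 0.040 (SE, edgeR adjusted p-value 5.40e-11). *Nrp1*, the receptor used by *Sema3a*, was counted 6948, 7302 and 6674 times in WT and 6175, 6361 and 7426 times in cKO. These counts overlapped, and the log2 fold change of -0.0094 had a 95% interval of -0.13 to 0.11. *Nrp2* accounted for 56.6% ± 1.34 of the neuropilin level per kb in WT and 68.8% ± 0.807 in cKO. For *Sema3a*, the ligand was 1.72-fold lower, *Plxna1* was 1.40-fold higher and *Nrp1* did not pass the test.

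Among the Eph receptors, 7 of 9 tested genes fell and 0 rose, and among the 8 ephrins 3 fell and 0 rose. *Epha4* (chromosome 1, 77343822 to 77491725), a receptor for ephrins of both the A and B classes, was counted 364, 333 and 310 times in WT and 60, 47 and 53 times in cKO. Every cKO library was below every WT library, and the level fell 6.02-fold, from 7.59 ± 0.767 to 1.26 ± 0.145 CPM (SD, n = 3 each; log2 fold change -2.59 ± 0.18 SE, edgeR adjusted p-value 2.72e-09). *Ephb2*, a receptor of B-class ephrins, was counted 1918, 2047 and 1685 times in WT and 725, 860 and 981 times in cKO, a 2.10-fold decrease. *Ephb4*, the receptor of ephrin B2, was counted 2661, 2931 and 2413 times in WT and 1625, 1533 and 1761 times in cKO, a 1.56-fold decrease (edgeR adjusted p-value 1.88e-08). Both genes were lower in each cKO library than in each WT library. The other 4 that fell were *Epha7* (log2 fold change -0.87), *Epha1* (-0.44), *Ephb6* (-0.34) and *Epha2* (-0.32). *Epha1* shares 36.9% of its exon bases with *Zyx* on the other strand, which was counted far more often and fell 1.87-fold, so these counts may not be separate. In GENCODE vM39, *Ephb6* shares 14.7% of its exon bases with *Trpv6* on the other strand, which had at most 3 counts in any library. In the deposited coordinates these genes do not overlap, as *Ephb6* ends at 41597443 and *Trpv6* starts at 41597558. *Epha3* and *Ephb3* did not pass the test.

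The ephrin ligands that fell included both of the abundant B-class genes. *Efnb1*, which is X-linked, was counted 2107, 2227 and 1822 times in WT and 989, 1000 and 1090 times in cKO. It fell 1.91-fold, from 46.2 ± 1.16 to 24.2 ± 0.844 CPM (SD, n = 3 each), with a log2 fold change of -0.93 ± 0.061 (SE, edgeR adjusted p-value 9.70e-10). Over the 543 tested X-linked genes, leaving out *Xist*, the median log2 fold change was -0.0031, with 124 higher and 117 lower. Among all tested genes, 20.1% were higher and 19.2% lower. For *Efnb1*, as for every gene here, sex and genotype cannot be told apart. *Efnb2*, known from osteoclasts as the partner of EphB4, was counted 4451, 4761 and 3678 times in WT and 2924, 2850 and 3470 times in cKO, a 1.33-fold decrease (log2 fold change -0.41, edgeR adjusted p-value 2.73e-06). In GENCODE vM39, 10.3% of the *Efnb2* exon bases lie under antisense genes. The ligand *Efnb2* and its receptor *Ephb4* were thus both lower, and so were *Efnb1* and *Ephb2*. *Efna3* also fell, by 0.73 on the log2 scale, and 30.7% of its exon bases overlap *Gm15998* on the other strand, which had at most 18 counts in any library. Its neighbours *Efna1* and *Efna4*, within 66.3 kb on chromosome 3, had log2 fold changes of 0.26 and -0.27 and did not pass the test. The ephrin sum went from 45.7 ± 1.22 to 35.5 ± 0.797 CPM per kb and the Eph receptor sum from 45.5 ± 0.685 to 33.3 ± 0.735 CPM per kb (SD, n = 3 each). B-class ephrins made up 60.4% ± 0.658 of the ephrin sum in WT and 50.0% ± 2.29 in cKO.

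All 3 Slits fell, and of the 3 tested Robos 1 rose and 0 fell. *Slit3*, the most abundant Slit, was counted 13765, 14973 and 12799 times in WT and 8558, 8219 and 9281 times in cKO. It fell 1.53-fold, from 312 ± 15.1 to 205 ± 1.71 CPM (SD, n = 3 each), with a log2 fold change of -0.61 ± 0.042 (SE, edgeR adjusted p-value 2.15e-09). *Slit1* was counted 236, 410 and 241 times in WT and 26, 83 and 78 times in cKO, a 4.46-fold decrease. *Slit2* fell by 0.85 on the log2 scale. The groups did not overlap for any of the Slits. *Robo1*, which held 94.4% ± 0.765 of the Robo level per kb in WT and 93.3% ± 0.429 in cKO, was counted 3196, 3208 and 2827 times in WT and 3016, 2925 and 3306 times in cKO. Its groups overlapped, and the log2 fold change of 0.065 had a 95% interval of -0.047 to 0.18. *Robo2*, a minor member of the family here, rose with a log2 fold change of 0.81 (edgeR adjusted p-value 0.00331). The Slit sum thus went from 56.6 ± 2.84 to 36.2 ± 0.309 CPM per kb, and the Robo sum was 4.46 ± 0.262 CPM per kb in WT and 4.72 ± 0.0821 CPM per kb in cKO (SD, n = 3 each).

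Among the netrin receptors, 4 of 5 tested genes fell and 0 rose. *Unc5b* (chromosome 10, 60598372 to 60667360), which mediates repulsion by netrin 1, was counted 7776, 8081 and 7265 times in WT and 2348, 2071 and 2519 times in cKO. It fell 3.20-fold, from 174 ± 12.2 to 54.4 ± 2.05 CPM (SD, n = 3 each), with a log2 fold change of -1.68 ± 0.055 (SE, edgeR adjusted p-value 7.08e-14). This was the smallest adjusted p-value of any guidance gene that fell. *Dcc*, the attractive netrin receptor, was counted only 36, 23 and 15 times in WT and 6, 0 and 6 times in cKO. Its log2 fold change of -2.53 had a 95% interval of -4.04 to -1.02 (edgeR adjusted p-value 0.00899), and without WT replicate 1 it was -2.17 with an adjusted p-value of 0.0614. *Unc5c* and *Unc5a* fell by 0.67 and 0.88 on the log2 scale. In GENCODE vM39, *Unc5a* shares 5.73% of its exon bases with other genes, among them *Hk3* on the other strand. *Hk3* averaged 14.2 CPM in WT and 83.9 CPM in cKO. In the deposited coordinates *Unc5a* ends at 55153831 and *Hk3* starts at 55153798, so they overlap only at their ends. *Neo1*, encoding neogenin, did not pass the test, and its log2 fold change of -0.095 had a 95% interval of -0.19 to 0.00019.

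Together the netrin receptors went from 48.1 ± 3.07 to 26.7 ± 0.206 CPM per kb (SD, n = 3 each). *Unc5b* made up 57.9% ± 0.796 of this sum in WT and 32.6% ± 0.990 in cKO, and *Neo1* made up 36.3% ± 0.850 and 61.2% ± 0.928. The leading netrin receptor transcript was therefore *Unc5b* in each WT library and *Neo1* in each cKO library. Of the ligands, *Ntn1*, whose product acts on osteoclast differentiation, was counted 3117, 3519 and 2934 times in WT and 3959, 3574 and 3968 times in cKO. On the CPM scale the groups did not overlap, and it rose 1.26-fold, from 71.9 ± 3.29 to 90.4 ± 3.40 CPM (SD, n = 3 each; log2 fold change 0.33, edgeR adjusted p-value 4.51e-05). *Ntn4*, a netrin of basement membranes, fell by 0.87 on the log2 scale, and 10.9% of its GENCODE vM39 exon bases lie under antisense genes. *Ntn3* did not pass the test. *Ntn1* held 35.5% ± 0.691 of the netrin level per kb in WT and 53.3% ± 1.33 in cKO.

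The 9 genes that were not tested were *Sema5b*, *Epha5*, *Epha6*, *Epha8*, *Epha10*, *Ephb1*, *Robo4*, *Ntn5* and *Unc5d*. *Epha6*, *Ephb1* and *Ntn5* had 0 counts in all 6 libraries, where 3 counts would be 0.0605 to 0.0773 CPM, so expression below that was not detectable at this depth. Such floors cover counting error only. *Robo4*, a Robo of endothelial cells, had 6, 19 and 2 counts in WT and 0 in each cKO library, and *Unc5d* had 8, 6 and 7 counts in WT and 0, 0 and 2 in cKO.

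Of 85 other genes of these pathways, 79 were tested, 19 rose and 34 fell, beside 20.1% higher and 19.2% lower among all tested genes, and the median log2 fold change was -0.057. Other guidance ligands and co-receptors were mixed, with 13 higher and 12 lower of 29, while signal transducers had 6 higher and 22 lower of 50. The genes with the smallest p-values among those at least 2-fold higher were *Trem2* and *Tyrobp*, partners of plexin A1 in myeloid cells. *Trem2* rose from 17.4 ± 1.24 to 100.3 ± 2.56 CPM and *Tyrobp* from 10.4 ± 1.71 to 84.4 ± 5.37 CPM (SD, n = 3 each). *Cd72*, a receptor of *Sema4d* on immune cells, rose from 1.91 ± 0.298 to 15.1 ± 1.38 CPM. *Vav3*, an exchange factor downstream of Eph receptors, had a log2 fold change of 2.16, and *Sh2d3c*, an adaptor of Eph receptors, 1.93. *L1cam*, a partner of neuropilin 1, and *Kdr*, a VEGF receptor that associates with neuropilins, had log2 fold changes of 2.55 and 2.04. Of those at least 2-fold lower, *Lingo1*, a part of the Nogo receptor complex, had a log2 fold change of -1.59, the adhesion molecule *Cntn2* -3.46 and the netrin-G ligand *Lrrc4c* -1.29. *Trem2*, *Tyrobp* and *Cd72* are themselves expressed by macrophages, whose markers rose in the same libraries. *Kdr* is also an endothelial marker, and of 9 tested endothelial markers 3 rose and 4 fell.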

How the data were processed

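Gene counts of 6 libraries were used, and groups and replicate numbers came from the sample titles. The authors made directional libraries, sequenced read pairs of 150 bp, aligned them with HISAT2 2.0.5 to GRCm39 and deposited raw counts per gene with a gene length in bases. The submitters' processing notes name featureCounts 1.55.0-p3 for the counting, whereas the methods name another release and also RSEM. The methods and labels do not name the strand setting. Exon overlaps between genes were taken from GENCODE vM39, whose gene bounds differ from the deposited ones for some genes.

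From the deposited counts, edgeR 4.0.16 in R 4.3.3 fitted genotype alone, with filterByExpr, TMM scaling, glmQLFit and glmQLFTest. Adjustment was by Benjamini-Hochberg over 17146 genes, and the coefficient of variation between replicates was 8.36%. A gene rose or fell at an adjusted p-value below 0.05, and 2-fold calls also needed a log2 fold change of at least 1. CPM use the TMM-scaled library size. The standard errors of log2 fold changes are not edgeR output. They were derived as the absolute log2 fold change divided by the square root of the F value of the test. The 95% intervals were built from them with a t quantile at the total degrees of freedom. No count column was left out. The script was tested on simulated data.

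Counts in every library are given for genes past both limits, for genes known in bone and for the 5 most abundant per kb. Up to 10 other pathway genes past both limits are named by p-value. The members and lists were chosen with earlier results of these data known. The alternatives were DESeq2 1.42.0, limma-voom with limma 3.58.1, other scalings and filters, halved counts, a test against a fold of 1.5, a replicate block and each library left out.

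Proteins and other assays of the study were not analysed here.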

Additional observations from a re-analysis of the deposited data

How the results depend on the processing

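The number of guidance genes past the test was 39 and lay between 37 and 42 over 15 alternatives, always with 12 higher, and with 25 to 30 lower. The number past the test and at least 2-fold apart was 13 and lay between 12 and 15, and 19 passed a test against a fold of 1.5, which is another criterion. The count of other pathway genes past the test was 53 and lay between 46 and 56. The median over the tested guidance genes was -0.15, and moved to -0.22 with upper-quartile scaling, where the median of all genes was -0.061, to -0.24 without a low-count filter and to -0.20 with a minimum of 1 CPM in at least 3 libraries. Leaving out single libraries gave -0.22 to -0.11. Of 26 named genes under these alternatives, 381 values kept direction and call. The 5 sign changes were in genes that did not pass the test: *Nrp1* at 0.013 with library size alone, 0.052 without WT replicate 3 and 0.037 without cKO replicate 1, *Plxnb2* at 0.0053 without WT replicate 3, and *Robo1* at -0.0031 with upper-quartile scaling. Over all single libraries left out, *Nrp1* lay between -0.068 and 0.052 and *Plxnb2* between -0.11 and 0.0053. *Plxnb2* fell under upper-quartile scaling (-0.12, adjusted p-value 0.0353 by edgeR). *Dcc* lost its call without WT replicate 1. With genes at low counts such as *Dcc*, depth limits the precision.

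With the replicate number as a block, 39 guidance genes passed, 12 higher and 27 lower, 13 of them at least 2-fold, and 50 other pathway genes passed, 19 higher and 31 lower. The median was -0.16, and the block changed no call of a named gene. The labels do not say what a shared number marks, and the deviations of same-numbered libraries from their group means had correlations of -0.0055, 0.0023 and -0.010, so the numbers were not used as pairs.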
